A study of Rattus norvegicus with 3 samples.

Results

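A small set of cells carrying the signalling ligands Fgf8 and Fgf17 was examined in single-cell RNA libraries of the rat embryonic cortex. The cells were chosen by their own transcript counts. A cell entered the set with at least 1 unique molecular identifier (UMI, 1 captured RNA molecule) of Fgf8 or Fgf17, at least 1 of Zic4 or Zic1, at least 1 of Spry1 or Spry2, and none of the choroid plexus genes Folr1 and Clic6. The rule selected 149 of 15327 kept cell barcodes, namely 0 of 4444 in the library labelled embryonic day 14, 126 of 5193 at day 16 and 23 of 5690 at day 18. They are called the Fgf8/Fgf17 cells here, because the regional genes that bear on their working name of rostral patterning progenitors differed among them, as given further on.

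The series comprised 3 droplet libraries (10x Genomics 3′ chemistry) of dissociated wild-type rat cerebral cortex, 1 at each labelled age. The labels name no transgene and no treatment beyond papain dissociation, and give neither the number of embryos behind a library nor the dissection borders. With 1 library per label no difference has a replicate check, so no test was made and no p-value is given. Intervals in parentheses are 95% intervals that cover counting error only, and a difference called 2-fold is a description of these libraries.

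Fgf8, Fgf17 and Fgf18 form a subfamily of secreted fibroblast growth factors. At the rostral midline of the developing forebrain they form a signalling centre that patterns the frontal cortex, and Fgf8 is also made at the midbrain-hindbrain border and at the dorsal midline of the diencephalon. The ligands bind FGF receptors and activate the Ras-MAPK cascade, which switches on feedback inhibitors such as the Sprouty genes, Dusp6 and Il17rd, and the Etv transcription factors. The cortical hem is the neighbouring centre of the dorsal midline and secretes Wnt and BMP ligands.

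The libraries held between 62740631 and 80974234 UMIs, and kept barcodes had medians between 10671.5 and 12477. The Fgf8/Fgf17 cells had a median of 11566.5 UMIs (4418 to 55230) at E16 and 15757 (7332 to 61459) at E18. They were set beside 3037 other progenitors of the E16 library, which had at least 3 UMIs of Sox2, Pax6 and Hes5, none of Neurod2 or Neurod6 and no ligand, with a median of 13848 UMIs. They were also set beside 91 hem-like cells, chosen on Wnt3a or Wnt2b together with an R-spondin gene, with a median of 14687 UMIs. Genes used to define a population differ by construction. Stage genes did not follow the labels: Hmga2, an early stem cell gene, was at 9.20 UMIs per 1000000 UMIs (CPM) in other progenitors labelled E14, 218 at E16 and 20.9 at E18. Differences between libraries are therefore between libraries as labelled. No barcode was shared between Fgf8/Fgf17 cells of different libraries, while 8 to 9 kept barcodes were shared by each pair of libraries. Of the Fgf8/Fgf17 cells, 10 of 126 at E16 and 9 of 23 at E18 carried 10 or more UMIs of meningeal genes, of Ttr or of the neuron genes Neurod1, Neurod2, Neurod6 and Tbr1.

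The ligands came from few cells and only from 2 of the 3 libraries. Fgf8 or Fgf17 was detected in 0 kept cells at E14, 214 at E16 (4.12%) and 47 at E18 (0.826%). The Fgf8/Fgf17 cells made up 2.43% (2.03 to 2.88) of kept cells at E16 and 0.404% (0.256 to 0.606) at E18. At E14 the count of 0 allows a share of up to 0.0675%, taken as 3 counts of the total. As a share of these cells and the other progenitors together they were 3.98% (3.33 to 4.72) at E16, 1.46% (0.925 to 2.18) at E18 and 0 of 207 at E14, which allows up to 1.45%. The size of the set at E18 depended on the limit on mitochondrial UMIs, since a maximum of 5% in place of 10% left 2 cells there and 75 at E16.

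Zic and Sprouty genes were found in most ligand-bearing cells, and both belong to the rule. At E16 a Zic4 or Zic1 UMI was present in 85.0% (79.6 to 89.5) of cells with a ligand and in 21.8% (20.7 to 23.0) of those without, and a Spry1 or Spry2 UMI in 74.3% (67.9 to 80.0) and 17.1% (16.1 to 18.2). The 2 kinds of cells had median depths of 12711.5 and 12471 UMIs. Just outside the rule at E16 were 6 ligand cells that lacked only a Zic UMI, 27 that lacked only a Sprouty UMI and 26 excluded only for a Folr1 or Clic6 UMI, while 29 failed on more than 1 count. A further 356 cells met every criterion but had no ligand UMI. Just inside, 22 cells had a single ligand UMI. These 22 cells had 37.4 CPM of Six3, 96.7 of Otx2 and 234 of Dusp6, against 22.2, 75.8 and 85.8 CPM in the 356 without a ligand. The 356 cells were mixed, since 50 had 10 or more UMIs of meningeal genes and 137 of excitatory neuron genes. Among the 126 Fgf8/Fgf17 cells these numbers were 2 and 19.

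Ligand transcripts were concentrated in a minority of the set. At E16 the cells held 685 Fgf8 UMIs in 81 cells, with a median of 2 and a highest value of 32 among all 126, and 1258 Fgf17 UMIs in 104 cells, with a median of 5 and a highest value of 70. Of the 126 cells, 54 had 10 or more UMIs of the pair and held 87.1% of them. Both ligands were detected in 59 cells, Fgf17 alone in 45 and Fgf8 alone in 22. At E18 the corresponding numbers were 6, 7 and 10 cells, with 70 Fgf8 and 102 Fgf17 UMIs in all. At E16, 28 of the 30 cells with 10 or more Fgf8 UMIs also had 10 or more of Fgf17, which 46 cells reached. At E18 the 1 cell with 10 or more Fgf8 UMIs had no Fgf17.

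**Figure D1:**
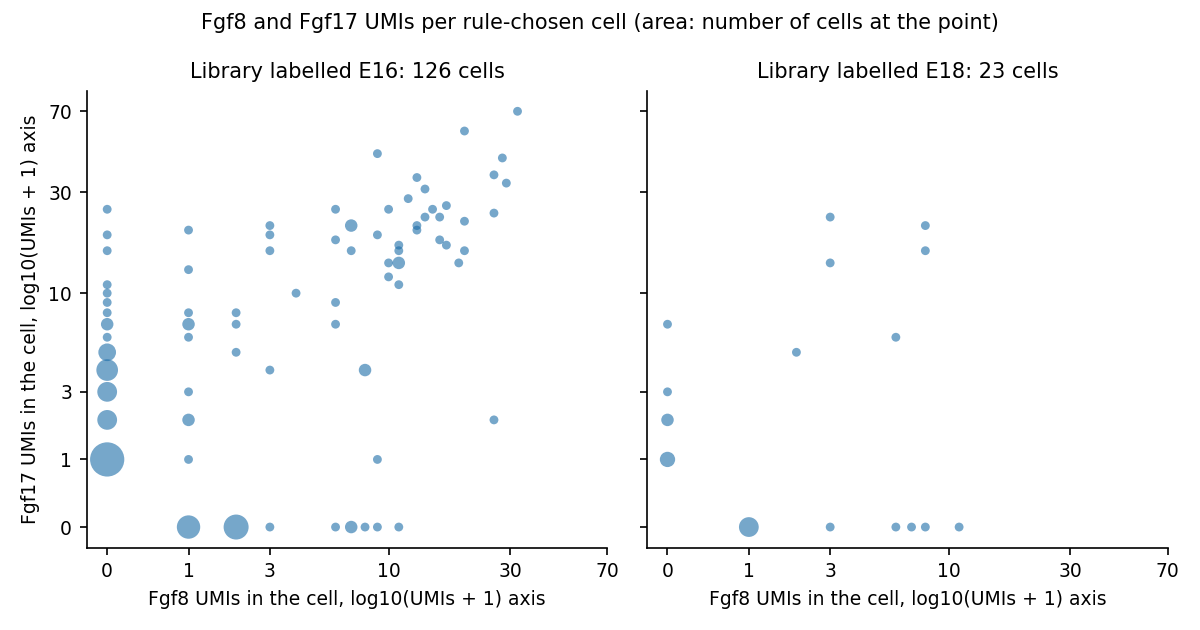
UMIs of Fgf8 (horizontal) and Fgf17 (vertical) in each Fgf8/Fgf17 cell of the libraries labelled E16 and E18, on axes of log10(UMIs + 1), with the area of a point proportional to the number of cells. Of the 126 cells at E16, 59 have both ligands, 45 lie on the vertical axis with Fgf17 alone and 22 on the horizontal axis with Fgf8 alone.

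Summed over the cells, Fgf8 stood at 401 CPM (372 to 432) at E16 and 163 (127 to 206) at E18, and Fgf17 at 737 (697 to 779) and 238 (194 to 289). These values describe the choice of cells. In neurons, which should lack the ligands, 0 Fgf8 or Fgf17 UMIs were found in 306 cells at E16 (median depth 9171.5 UMIs) and 3 in 1721 cells at E18 (9243).

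The third gene of the subfamily was not part of the rule and was high in the same cells. Fgf18 reached 145 CPM (128 to 165) at E16, where 55 of 126 cells had at least 1 UMI, against 1.21 (0.923 to 1.56) in other progenitors and 2.38 (0.647 to 6.08) in hem-like cells. At E18 it was at 48.9 CPM (30.3 to 74.8) in 7 of 23 cells, against 0.659 (0.360 to 1.11). After thinning every cell to 2000 UMIs, Fgf18 was seen in 21.4% of Fgf8/Fgf17 cells at E16 and in 0.297% of other progenitors, against 43.7% and 1.88% without thinning. Fgf19, the gene under which the files list this hormone-like FGF, was at 22.3 CPM (15.8 to 30.6) against 2.44 (2.02 to 2.92). The other 9 FGF ligands of the list stayed under 20 CPM. Of these, Fgf3, Fgf9 and Fgf2 were each at 4.10 CPM, and Fgf5, Fgf7, Fgf10 and Fgf20 had no UMI.

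Receptor genes did not follow the ligands. Fgfr1 was at 72.6 CPM (60.4 to 86.6) in the Fgf8/Fgf17 cells and 62.4 (60.2 to 64.7) in other progenitors at E16. Fgfr2 was lower, at 15.8 CPM (10.4 to 23.0) against 56.2 (54.1 to 58.3). Fgfr3, the receptor typical of cortical radial glia, was close to absent, at 5.27 CPM (2.41 to 10.0) in 6 of 126 cells against 98.6 (95.8 to 101) in other progenitors and 29.7 (22.0 to 39.1) in hem-like cells. The E18 library gave 2.33 CPM of Fgfr3 (0.0590 to 13.0) against 95.2 (91.1 to 99.4). Fgfr4 had no UMI in the E16 cells.

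Several target genes of FGF signalling were higher. Relative to other progenitors at E16, with 10 CPM added to both levels, 232 of 6433 genes with at least 20 CPM in either population were at least 2-fold higher (3.61%) and 101 were at least 2-fold lower (1.57%), with a median log2 ratio of -0.04. Of 12 response genes outside the rule, 8 reached the minimum level, 5 were at least 2-fold higher, 0 were 2-fold lower, and the median log2 ratio was 1.25. Since the cells were picked on the response genes Spry1 and Spry2, this count is not independent of the choice. Dusp6, Il17rd, Etv4 and Etv5 reached the minimum level only in the Fgf8/Fgf17 cells and so had to differ, which leaves the count a description of levels.

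Dusp6, a phosphatase that inactivates ERK, was at 176 CPM (157 to 197) in 102 of 126 cells against 19.3 (18.1 to 20.5), a log2 ratio of 2.67 (2.50 to 2.84). Il17rd, a membrane antagonist of FGF receptors, was at 117 CPM (101 to 134) in 74 cells against 9.41 (8.57 to 10.3), a log2 ratio of 2.71 (2.51 to 2.90). Both were also above their levels in hem-like cells, 47.5 (37.7 to 59.1) and 17.2 CPM (11.5 to 24.7). Of the ETS transcription factors, Etv4 was at 44.5 against 3.29 CPM and Etv5 at 65.6 against 17, while Etv1 missed the 2-fold line at 74.4 against 36.0. Spred1, a Sprouty-related inhibitor, was at 63.3 against 26 CPM and Spred2 at 29.3 against 19.0. Flrt3, a membrane protein that binds FGF receptors, was at 136 CPM (119 to 155) against 142 (139 to 145). Spry3, Spry4, Spred3 and Cnpy1 stayed under 20 CPM, with Spry4 at 9.37 against 0.411.

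At E18 the 5 genes past the 2-fold line at E16 were at lower levels. Dusp6 was at 51.3 CPM (32.1 to 77.6) against 3.39 (2.65 to 4.27), Il17rd at 32.6 (17.8 to 54.7) against 6.68 (5.63 to 7.88) and Etv4 at 30.3 (16.1 to 51.8) against 1.74 (1.23 to 2.40). Etv5 was at 41.9 CPM (24.9 to 66.3) against 23.8 (21.8 to 26), and Spred1 at 35.0 against 34.8. In the plot of FGF genes the Fgf8/Fgf17 cells of both libraries lie above the other progenitors of E16 for Fgf8, Fgf17, Fgf18, Spry1, Spry2, Dusp6, Il17rd, Etv4 and Etv5, and below them for Fgfr2 and Fgfr3.

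**Figure D2:**
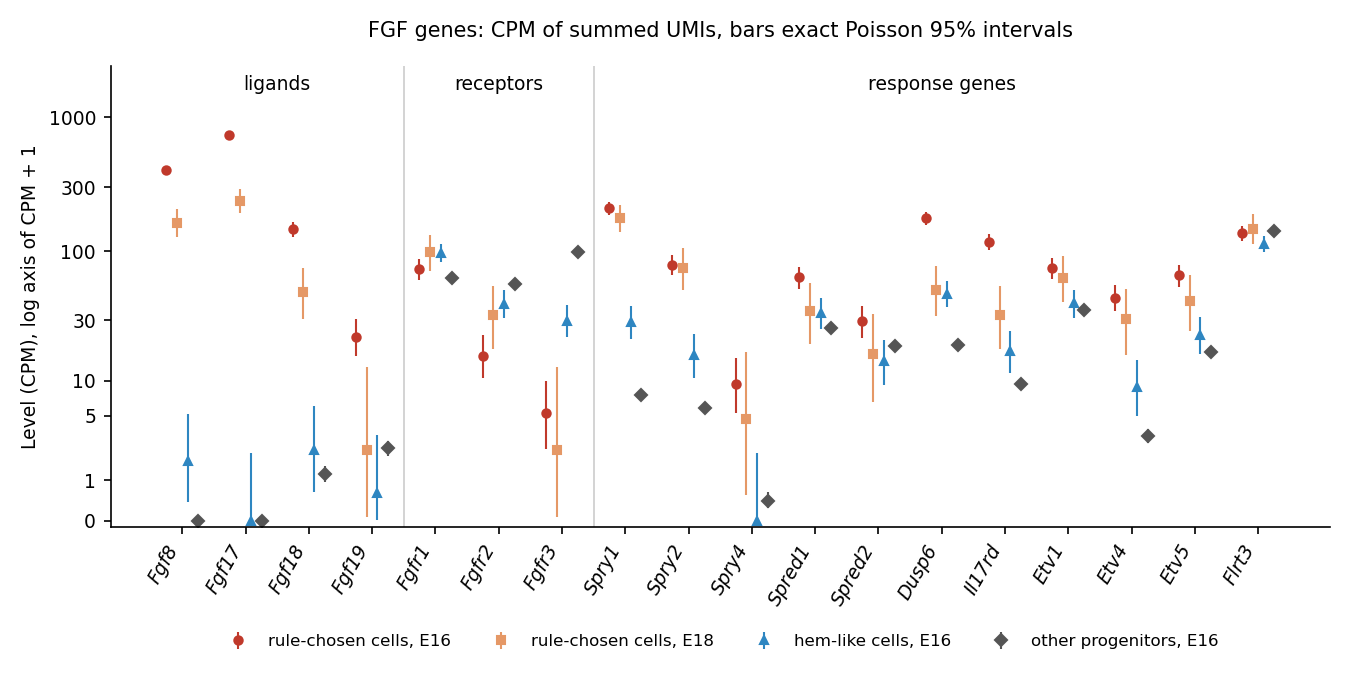
Levels of FGF ligands, receptors and response genes in CPM, on a log axis of CPM + 1, with exact Poisson 95% intervals as bars. Circles and squares are the Fgf8/Fgf17 cells of the libraries labelled E16 and E18, triangles hem-like cells and diamonds other progenitors at E16; Fgfr3 is at 5.27 CPM in the circles and 98.6 CPM in the diamonds, and Dusp6 at 176 and 19.3 CPM.

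Promoter sequences of Spry1, Spry2, Dusp6 and Il17rd are shown because the Etv proteins, also response genes, are ETS factors, which bind a GGAA core. Spry1 and Spry2 belong to the rule, so their levels follow from the choice of cells. The letters CCGGAA were searched on both strands in the 250 bases before each listed start in RefSeq's GRCr8 promoters. Of 17 FGF genes looked for, 15 had a promoter there and 2 held the letters, Spry2 and Spry4, beside 12.6% of all 33469 promoters. Spry2 held them before 1 of its 2 listed starts, beginning 171 bases upstream, shown in capitals within the bases 221 to 122 before that start (GRCr8 chr15:89112048-89112147, minus strand). Spry1 (chr2:122485247-122485346, plus strand), Dusp6 (chr7:35979504-35979603, plus strand) and Il17rd (chr16:2235072-2235171, plus strand) are shown for the 100 bases before the start and have no match. A match is a string of letters and not a measured site.
Spry2: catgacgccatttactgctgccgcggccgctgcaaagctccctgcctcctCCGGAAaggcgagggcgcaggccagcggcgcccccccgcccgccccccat
Spry1: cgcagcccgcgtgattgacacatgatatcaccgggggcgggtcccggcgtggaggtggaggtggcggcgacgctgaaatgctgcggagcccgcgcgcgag
Dusp6: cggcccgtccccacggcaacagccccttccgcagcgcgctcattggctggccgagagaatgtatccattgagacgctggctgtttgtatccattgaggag
Il17rd: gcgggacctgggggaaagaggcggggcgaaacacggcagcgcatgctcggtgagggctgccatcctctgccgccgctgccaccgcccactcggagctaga

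Transcription factors of the rostral midline were higher in the Fgf8/Fgf17 cells. Of 7 such genes outside the rule, 6 reached the minimum level, 5 were at least 2-fold higher than in other progenitors and the median log2 ratio was 1.78. Six3 and Vax1 reached the minimum only in the Fgf8/Fgf17 cells. Six3, a homeobox gene of the most anterior neural plate, was at 148 CPM (130 to 168) in 77 of 126 cells against 3.59 (3.08 to 4.17) in other progenitors and 13.1 (8.19 to 19.8) in hem-like cells. Vax1, a homeobox gene of the ventral anterior forebrain, was at 24.6 CPM (17.7 to 33.3) against 1.01 (0.745 to 1.33), with no UMI in hem-like cells. Zic2 and Zic5, relatives of the genes in the rule, were at 166 and 244 CPM against 46.4 and 57.6, and close to the 221 and 229 CPM of hem-like cells. Over hem-like cells 2 of the 6 genes were at least 2-fold higher, Six3 and Vax1, with a median log2 ratio of 0.90. Sp8, another gene of this list, did not reach the minimum level, at 1.76 CPM.

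Six3 and Otx2 were high in the E18 cells too. Six3 was at 182 CPM (144 to 227) in 15 of 23 cells against 0.989 (0.612 to 1.51). Otx2, a homeobox gene of the forebrain and midbrain that is low in most cortical progenitors, was at 240 CPM (217 to 264) in 107 of 126 cells at E16 against 14.4 (13.4 to 15.5), and at 273 (225 to 327) in 20 of 23 cells at E18 against 8.85 (7.63 to 10.2). Hem-like cells at E16 had 164 CPM (146 to 185) of Otx2. With cells thinned to 2000 UMIs, a Six3 UMI remained in 25.4% of Fgf8/Fgf17 cells and 0.857% of other progenitors at E16, and an Otx2 UMI in 40.5% and 2.31%. In neurons at E16 the thinned shares were 0 for Six3 and 0.327% for Otx2.

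Genes of the cortical field were lower. Of 9 such transcription factors, all above the minimum level, 0 were at least 2-fold higher, 4 were at least 2-fold lower and the median log2 ratio was -0.98. Nr2f1, which in the cortex is low rostrally and high caudally, was at 29.9 CPM (22.2 to 39.3) against 197 (193 to 201), and Lhx2, a selector of cortical identity, at 187 (167 to 209) against 669 (662 to 676). Emx1 was at 63.8 against 152 CPM and Pax6, which is also a gene used to choose the other progenitors, at 82.0 against 189. Emx2, a caudal-to-rostral gradient gene, was at 104 CPM (89.5 to 121) against 181 (177 to 184) and did not reach a 2-fold difference. At E18 Nr2f1 stood at 23.3 CPM (11.2 to 42.9) against 204 (198 to 210).

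Hem genes lay between other progenitors and hem-like cells. Of 14 such genes, 8 reached the minimum level, 7 were at least 2-fold higher than in other progenitors and the median log2 ratio was 1.42. Apart from Wnt8b, these 7 reached the minimum only in the Fgf8/Fgf17 cells. Relative to hem-like cells, where 79 of 6638 genes were at least 2-fold higher (1.19%) and 137 at least 2-fold lower (2.06%), with a median of -0.06, 0 of 13 were higher, 10 were lower and the median was -1.85, partly by construction. Wnt8b was at 152 CPM (134 to 172) in 38 of 126 cells, against 46.3 in other progenitors and 577 in hem-like cells. Rspo1, a secreted enhancer of Wnt signalling, was at 159 CPM in 73 cells, against 17.8 and 493. Wnt3a, Lmx1a and Msx2, genes typical of the hem, were at 9.96, 7.03 and 8.79 CPM, against 163, 96.8 and 80.2 in hem-like cells. Bmp4 was at 28.7 CPM against 4.03 and 79.6, whereas Wnt5a, at 24.0 CPM, was close to its 19.0 in hem-like cells. In the plot of the 2 log2 ratios, Six3, Vax1, Il17rd, Dusp6, Etv4 and Etv5 lie above 0 on both axes. Of the hem genes, Wnt5a alone does so too, by a small margin over hem-like cells.

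**Figure D3:**
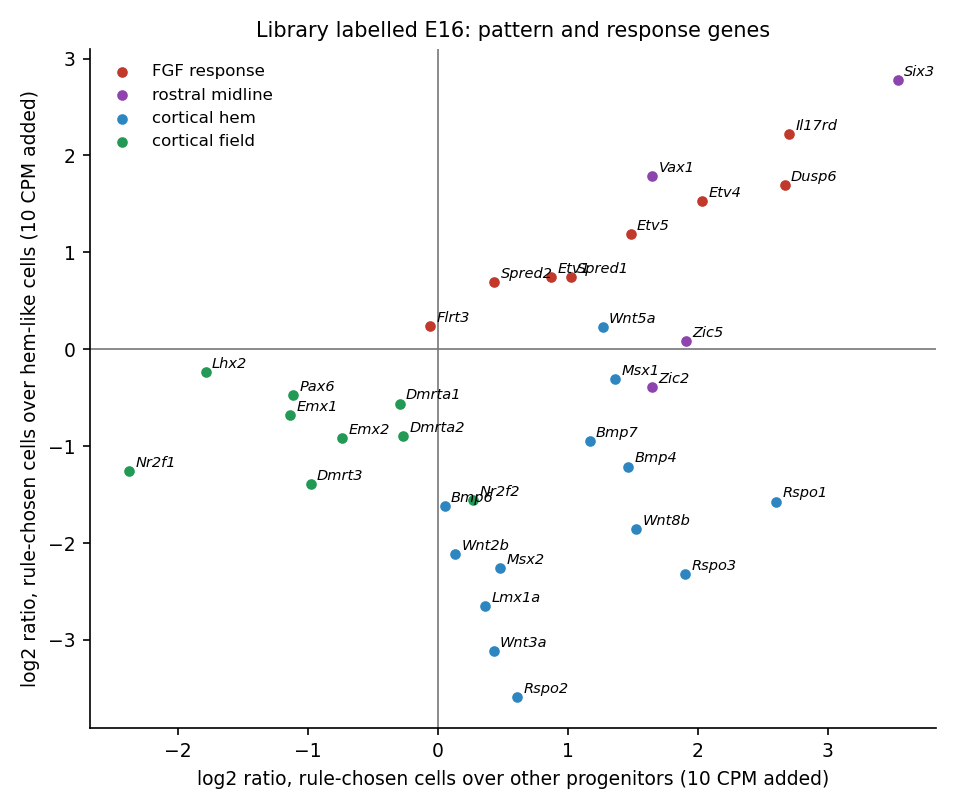
Log2 ratio of Fgf8/Fgf17 cells over other progenitors (horizontal) and over hem-like cells (vertical) in the library labelled E16, with 10 CPM added, for the reported response, rostral midline, hem and cortical field genes at 20 CPM or more in any of the 3 populations. Six3 lies at 3.54 on the horizontal axis in the upper right, Rspo1 at 2.61 in the lower right and Nr2f1 at -2.38 in the lower left.

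Markers of the midbrain-hindbrain border and of the ventral forebrain were at low levels. Of 8 genes of the midbrain-hindbrain border, none reached 20 CPM: En1, Lmx1b and Gbx2 had no UMI, Pax5 had 12 UMIs in 6 cells and Pax2 6 UMIs in 6 cells. Low as they were, the 8 genes summed to 14.1 CPM (9.01 to 20.9) at E16 against 0.164 (0.0709 to 0.324) in other progenitors and 1.78 (0.367 to 5.21) in hem-like cells, with 41.7% of the UMIs in 1 cell, and to 14 (5.13 to 30.4) against 0.0471 (0.00119 to 0.262) at E18. Shh had no UMI, and its target and receptor Ptch1 was at 26.9 CPM (19.7 to 35.9) against 7.78 (7.02 to 8.61). Nkx2-1, a ventral forebrain gene, was at 12.3 CPM in 6 cells, Dlx1 at 2.34 CPM, and Gad1 had no UMI. Of 9 genes listed for the diencephalon and eye, Otx2 alone reached 20 CPM, and the other 8 were between 0 and 4.10 CPM.

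The genes of the whole transcriptome with the highest ratios outside the rule were Fgf18 (log2 ratio 3.79), Maf (3.64), Six3 (3.54), Otx2 (3.35), Cthrc1 (3.10), Pmaip1 (2.91), Il17rd (2.71), Scx (2.70), Dusp6 (2.67), Rgs16 (2.65), Onecut2 (2.62) and Rspo1 (2.61). Maf, a leucine zipper transcription factor, was at 180 CPM (160 to 201) in 67 of 126 cells against 5.28 (4.65 to 5.97), and 27.3 (20.0 to 36.4) in hem-like cells. Cthrc1, a secreted glycoprotein, was at 87.9 CPM (74.4 to 103) in 50 cells against 1.40 (1.08 to 1.77). Scx, a helix-loop-helix factor best known from tendons, was at 64.4 CPM (53.0 to 77.7) against 1.48 (1.16 to 1.86), and at E18 at 11.7 (3.78 to 27.2) against 4.19 (3.36 to 5.16). At E18 Maf was at 170 CPM against 24.5, Cthrc1 at 130 against 1.60 and Onecut2, a cut-homeobox factor, at 240 against 20.2.

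The lowest ratios belonged to Fgfr3 (-2.83), Id4 (-2.73), Hopx (-2.62), Meis2 (-2.45), Sfrp1 (-2.39), Nr2f1 (-2.38), Fabp7 (-2.19) and Sall1 (-2.01). Id4, an inhibitor of helix-loop-helix factors, was at 258 CPM (235 to 284) against 1768 in other progenitors, and hem-like cells had 365 (337 to 395). Sfrp1, a secreted Wnt inhibitor, was at 183 CPM (163 to 204) against 1003, and 152 (134 to 172) in hem-like cells. Meis2, a homeobox factor, was at 34.6 CPM against 234, and Sall1, a zinc finger factor, at 28.1 against 143. For Id4, Sfrp1, Meis2, Sall1 and Fabp7 the hem-like cells were less than 2-fold from the Fgf8/Fgf17 cells.

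Radial glia and cell cycle genes were present, mostly somewhat below their levels in other progenitors. Of 9 radial glia genes, 1 was at least 2-fold lower, Fabp7 at 100 CPM against 494, and 0 were at least 2-fold higher. The median log2 ratio was -0.45, and Hes1 alone had a ratio above 0. Sox2 and Hes5 of this list were also used to choose the other progenitors. Vim was at 1812 CPM against 2173, Sox9 at 214 against 323 and Hes1 at 131 (114 to 149) against 104 (102 to 107). Of 10 S-phase and 10 mitosis genes, 0 were at least 2-fold apart in either direction, with median log2 ratios of -0.17 and -0.46. Mki67, a marker of cycling cells, was at 228 CPM (206 to 252) against 380 (375 to 385). After thinning to 2000 UMIs, 34.9% of Fgf8/Fgf17 cells and 61.2% of other progenitors had a Mki67 or Top2a UMI, against 60.3% and 85.2% before thinning, and hem-like cells had 42.9% after it. Neurog2, the proneural factor of cortical neurogenesis, was at 29.3 CPM (21.7 to 38.6) against 129 (126 to 132).

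Transcripts of meninges and choroid plexus rested on few cells. Meningeal genes summed to 185 CPM at E16, with 79.7% of the UMIs in 1 cell, and Ttr, the main choroid plexus transcript, had 512 UMIs, of which 370 were in 1 cell. The 8 excitatory neuron genes of the list summed to 587 CPM (552 to 625) against 344 (339 to 349) in other progenitors, with 10 or more UMIs in 19 of 126 cells against 349 of 3037. Their median was 3 UMIs per cell in both populations, and 1 of the Fgf8/Fgf17 cells held 16.3% of the UMIs. Of 6 tested, 1 was at least 2-fold higher, Dcx at 69.1 against 12.9 CPM, all 6 ratios were above 0 and the median log2 ratio was 0.79. Neurod1, Neurod2, Neurod6 and Tbr1 together reached 10 UMIs in 5 of 126 cells at E16 and in 7 of 23 at E18. Haemoglobin and other erythroid genes summed to 1309 CPM against 4950 in other progenitors, but the median was 6 UMIs per cell against 7. The highest cell held 1332 UMIs (59.6%) in the Fgf8/Fgf17 cells and 31922 (13.2%) in other progenitors. In the same order, 28 of 126 and 860 of 3037 cells had 10 or more. The numbers of genes past the 2-fold line changed by less than 1.5 times when the cells with other-lineage transcripts were left out.

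Cells with Fgf8 alone differed from the rest in regional genes. At E16 the 22 cells with Fgf8 alone had 381 CPM of Rspo3, with a UMI in 20 of them, against 28.9 CPM and 6 of 45 cells with Fgf17 alone, and 36.9 CPM and 5 of 59 cells with both. Olig3, a helix-loop-helix factor of the dorsal neural tube and of thalamic progenitors, was at 115 CPM in 10 of 22, at 0 in 45 and at 1.42 CPM in 1 of 59. Cbln1, a secreted synaptic organiser, was at 76.8 CPM in 8 of 22, at 0 in 45 and at 11.4 CPM in 4 of 59. Wls, the carrier that Wnt proteins need for secretion, was at 198, 30.4 and 24.2 CPM.

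Other genes ran the other way. Sfrp1 was at 44.8 CPM in 5 of 22 cells with Fgf8 alone, 310 in 31 of 45 with Fgf17 alone and 119 in 32 of 59 with both. In the same order, the Notch target Hes5 was at 16, 82.5 and 99.5 CPM and Lhx2 at 83.2, 233 and 188. Zic4, part of the rule, was level across the 3 groups at 432, 399 and 423 CPM, and Otx2 was at 202, 200 and 296. Six3 was at 57.6 CPM in 7 of 22 cells, 98.4 in 25 of 45 and 237 in 45 of 59. At E18 this order of Six3 was not found, with 175, 138 and 275 CPM. The working name of rostral progenitors, which the whole set did not share evenly at E16, is not used.

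The groups differed in depth and in ligand counts, and the genes of this split were picked after their values had been seen. Median depths were 13750.5, 12839 and 9873 UMIs, and median ligand counts 2, 3 and 25 UMIs. Thinned to 4000 UMIs per cell, Rspo3 was detected in 16 of 22, 3 of 45 and 5 of 59 cells, and Sfrp1 in 1, 19 and 16. Among cells with 4 or more ligand UMIs, Rspo3 was found in 6 of 6 cells with Fgf8 alone and 1 of 20 with Fgf17 alone, and Olig3 in 6 of 6 and 0 of 20. Without the cells that carried other-lineage transcripts, Rspo3 was found in 18 of 20, 3 of 40 and 4 of 56. Over all genes, 186 of 6685 were at least 2-fold higher with Fgf8 alone than with Fgf17 alone (2.78%) and 254 at least 2-fold lower (3.80%).

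The E18 library, whose values played no part in ranking these genes, held 10 cells with Fgf8 alone. Rspo3 was at 496 CPM in 9 of them, against 39.5 in 2 of 7 with Fgf17 alone and 15.3 in 1 of 6 with both. Cbln1 was at 252 CPM in 5 of 10, at 0 in 7 and at 15.3 in 1 of 6, and Wls at 240, 19.7 and 61.1 CPM. Olig3, in contrast, was at 15.2, 9.87 and 0 CPM and Sfrp1 at 152, 168 and 168. Of the 8 genes ranked highest at E16, 6 had the same sign at E18 and 5 were at least 2-fold apart in that direction, beside 52.3% and 14.5% of the 7047 genes tested there. Of the 8 ranked lowest, 4 had the same sign and 1 was 2-fold apart, beside 47.7% and 9.58% of the genes tested. Only 7 of the 8 highest and 5 of the 8 lowest reached the minimum level at E18, whereas these shares cover only genes that did. Ttr and Col3a1, genes of other lineages, led the lowest, and the log2 ratio of Ttr was -3.49 at E16 and 6.12 at E18. Of the 10 cells, 5 carried 10 or more UMIs of another lineage, and the other 5 all had Rspo3.

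**Figure D4:**
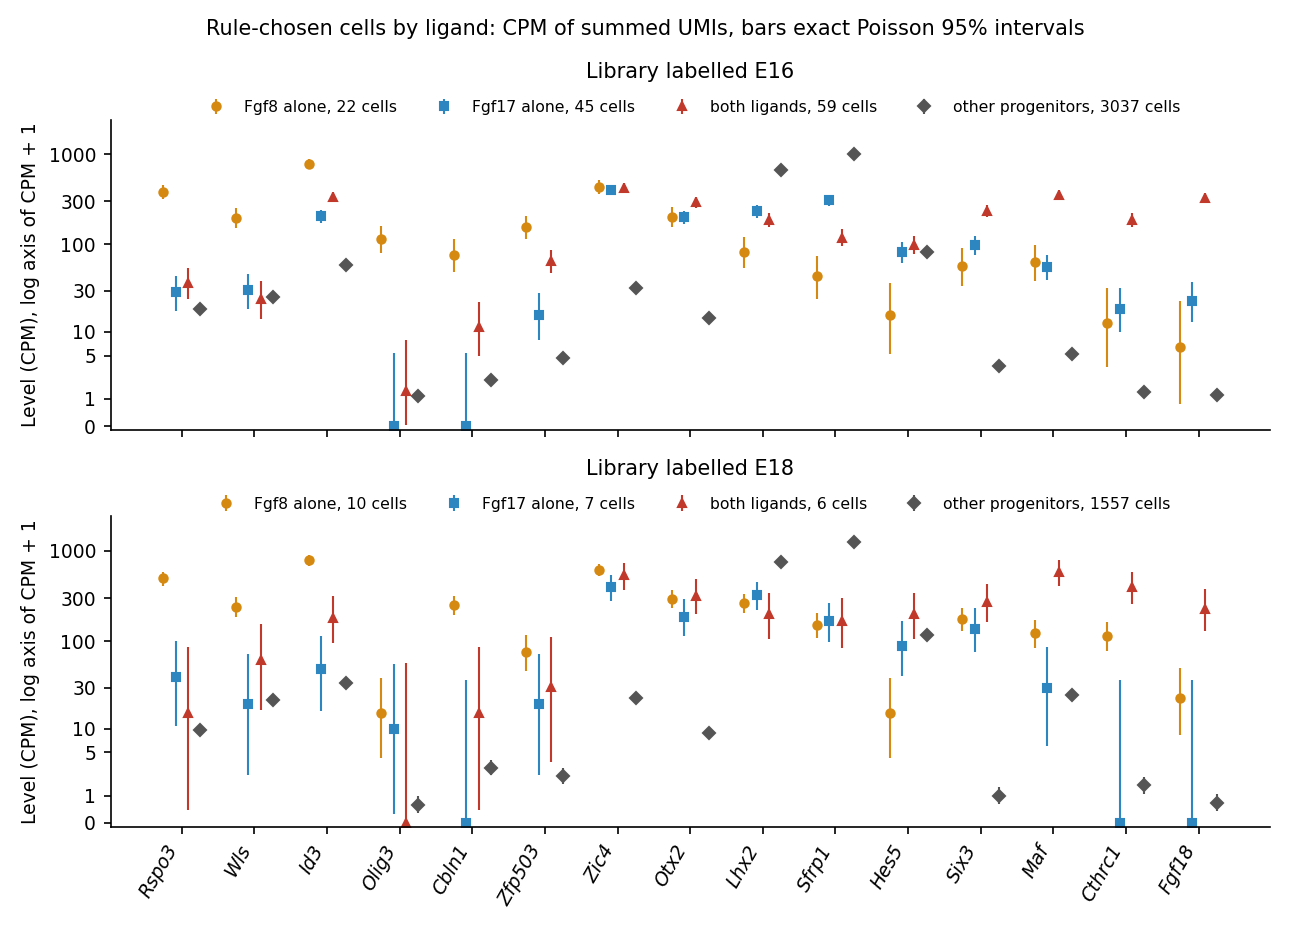
Levels in CPM, on a log axis of CPM + 1 with exact Poisson 95% intervals, in Fgf8/Fgf17 cells with Fgf8 alone (circles), Fgf17 alone (squares) or both (triangles) and in other progenitors (diamonds), for the libraries labelled E16 and E18. Rspo3 stands at 381 and 496 CPM in the circles of the 2 libraries and at 28.9 and 39.5 in the squares, while Fgf18 is highest in the triangles at 327 and 229 CPM.

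Several genes followed the number of ligand UMIs within the set. Between cells with 10 or more ligand UMIs and cells with 1 to 3, 142 of 6620 genes were at least 2-fold higher (2.15%) and 120 at least 2-fold lower (1.81%), with a median log2 ratio of -0.03. Fgf18 was at 6.24 CPM in the 22 cells with 1 ligand UMI, 15.9 in the 22 with 2 to 3, 31.4 in the 28 with 4 to 9 and 347 in the 54 with 10 or more. Maf went from 9.36 through 105 and 121 to 336 CPM, Six3 from 37.4 through 63.4 and 104 to 271, and Otx2 from 96.7 through 203 and 259 to 315. Scx was at 3.12, 3.17, 33.8 and 143 CPM. Markers of other cell types also differed with the ligand UMIs, and their part in these differences was not tested. All 4 meningeal genes tested were at least 2-fold lower with 10 or more ligand UMIs than with 1 to 3 (median log2 ratio -2.20), as were Ttr (log2 ratio -3.42) and 3 of 4 intermediate progenitor genes, namely Eomes, Gadd45g and Insm1 (median -1.74). Single cells weighed heavily here: of 512 Ttr UMIs in the set, 370 were in 1 cell with 2 Fgf17 UMIs and no Fgf8. For the meningeal genes, 79.7% of the UMIs in the set were in 1 cell. Of 7 excitatory neuron genes, Neurod1 and Tubb3 were at least 2-fold lower, but 4 ratios were above 0 and the median was 0.52. Median depths over the same groups were 13008, 12550.5, 12407.5 and 10817 UMIs.

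The response genes shown did not share this order. Il17rd was at 71.7, 38.1, 96.7 and 189 CPM and Etv5 at 49.9, 38.1, 55.6 and 92.8, each lowest with 2 to 3 ligand UMIs and highest with 10 or more. Dusp6 stood at 234, 127, 162 and 181 CPM, highest with 1 ligand UMI. Thinned to 2000 UMIs, a Dusp6 UMI was present in 31.8%, 31.8%, 25% and 35.2% of the cells, against 68.2%, 86.4%, 85.7% and 81.5% before thinning. Of the 8 response genes, 1 was at least 2-fold higher with 10 or more ligand UMIs than with 1 to 3, namely Il17rd. Their ratios were above 0 for 7 of 8, with a median log2 ratio of 0.475. The hem genes went both ways. Of 8 tested between cells with 10 or more and with 1 to 3 ligand UMIs, 4 were at least 2-fold lower (Wnt8b, Msx1, Rspo2 and Rspo3), 1 was at least 2-fold higher and 4 ratios were above 0, with a median log2 ratio of -0.44. Wnt8b and Rspo3 were at 281 and 106 CPM with 1 ligand UMI and at 51.7 and 45.6 with 10 or more, while the Wnt agonist Rspo1 was at 122 and 228. Fabp7 was at 299 and 15.2 CPM in the same groups, and Sfrp1 at 387 and 91.3. Fabp7 and Sfrp1 were thus nearer to their levels in other progenitors, 494 and 1003 CPM, in the cells with a single ligand UMI. Depth was lowest in the last group. Thinned to 2000 UMIs, the last group still had the highest shares for Fgf18 (4.55%, 4.55%, 7.14% and 42.6%), Six3 (9.09%, 4.55%, 21.4% and 42.6%) and Il17rd (13.6%, 4.55%, 17.9% and 33.3%), but not for Otx2 (18.2%, 31.8%, 53.6% and 46.3%). The unthinned shares of the last group were 79.6%, 79.6%, 74.1% and 94.4% for these 4 genes.

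**Figure D5:**
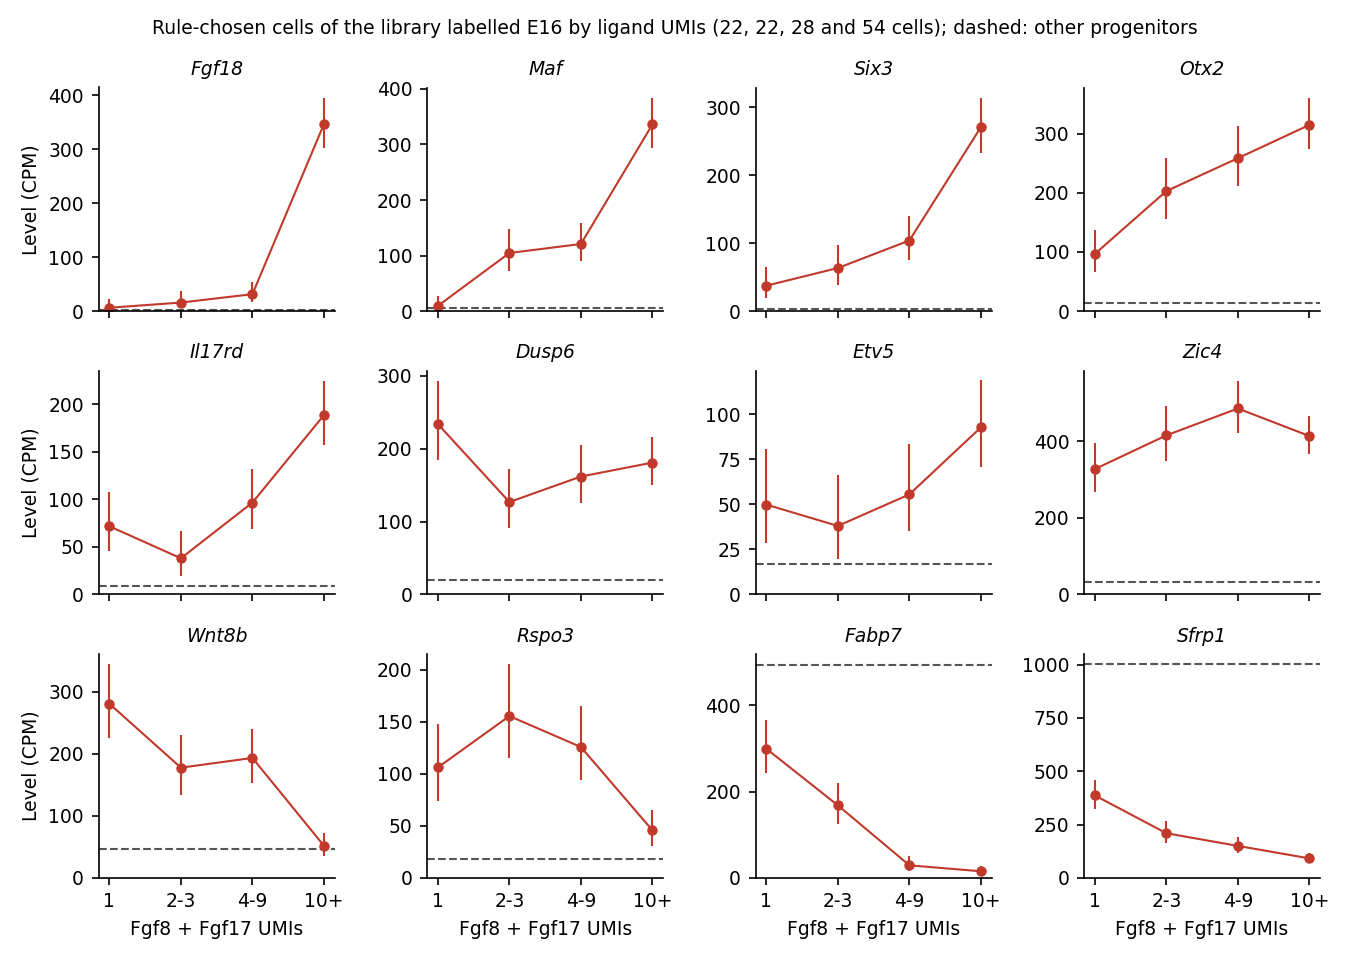
Levels in CPM with exact Poisson 95% intervals in Fgf8/Fgf17 cells of the library labelled E16, grouped by their Fgf8 and Fgf17 UMIs (22, 22, 28 and 54 cells), with a dashed line at the level of other progenitors. Fgf18 reaches 347 CPM in the last group, Dusp6 stays between 127 and 234 CPM, and Fabp7 goes from 299 to 15.2 CPM.

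At E18 the 23 cells carried more transcripts of later progenitors and neurons. Eomes, the factor of intermediate progenitors, was at 287 CPM (238 to 342) in 8 of 23 cells, with 40.7% of its UMIs in 1 cell, against 76.5 (72.8 to 80.3) in other progenitors. Neurod1 was at 175 CPM (137 to 219) in 10 cells against 4.85 (3.96 to 5.88). Reln, the secreted protein of Cajal-Retzius cells, had 214 UMIs, of which 128 were in 1 cell, and stood at 499 CPM against 17.3, compared with 15.2 CPM at E16. These genes mark other cell types, and their part in the E18 values was not tested. The highest doublet scores included 4 of these 23 cells, beside 4.55% of all kept cells at E18, and 6 of 126 at E16, beside 4.16%.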

How the data were processed

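The deposited matrices hold UMI counts per gene and barcode, not normalized. They come from Cell Ranger, version 6.0.1 (per the file headers), and the submitters' processing notes name the build mRatBN7.2. Each lists 29772 genes. Per the labels' protocols, tissue was dissociated with papain. The same text describes a sort of human cells and oligonucleotide labelling, which does not match these samples, so which of its steps applied is not known.

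A barcode was kept when 1000 or more genes were detected and mitochondrial UMIs did not exceed 10%. Populations were set by UMI thresholds, not by clustering. Scrublet (Scanpy 1.11.5) scored doublets, whose highest scores were left out only as an alternative. UMIs were summed per population and library and expressed as CPM with exact Poisson limits, and shares have exact Clopper-Pearson limits. Log2 ratios used 10 CPM added and genes with at least 20 CPM in either population. The calculation was checked on simulated counts. Libraries with fewer than 50 members entered no ratio list, which left E16. Named genes were the 12 highest and 8 lowest ratios at 50 CPM or more, outside the rule, together with the 24 gene lists. A few list genes are counted but not reported here by name. PCR duplicates are collapsed by UMIs, and intervals cover counting error only.

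The members and lists were chosen with earlier results of these data known. The split by ligand was added after the data were seen, with its 8 highest and 8 lowest genes. Software comprised pandas 2.3.3, scipy 1.17.1, numpy 2.4.6 and matplotlib 3.10.9 under Python 3.11.15.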

Additional observations from a re-analysis of the deposited data

Results flagged for a closer look

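Hes1, a Notch target of progenitors, had a log2 ratio of -1.08 over other progenitors at E18 (60.6 CPM against 140) and of 0.30 at E16 (131 against 104), the opposite sign. Eomes had a log2 ratio of 1.78 at E18 and -0.40 at E16, again of opposite sign, with 22.3 against 32.4 CPM in the earlier library. Neither difference between the libraries was tested.

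Ligand UMIs also occurred in barcodes that the filters removed. At E16 there were 39 Fgf8 or Fgf17 UMIs in 20 of 1514 such barcodes, and at E18 there were 7 in 5 of 1247. None of these barcodes entered the values above.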

How the results depend on the processing

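Each choice was changed on its own. No ratio reversed: of 280 values of named genes under the alternatives, 200 stayed within their counting interval and 80 moved. A maximum of 5% mitochondrial UMIs gave shares of 1.93% at E16 and 0.0719% at E18. At least 2 ligand UMIs gave 2.0% at E16, and at E18 this choice drops the 8 of 23 cells that had a single ligand UMI. Applying the rule at 5000 UMIs per barcode gave 1.61% and 0.238%, and 185 genes at least 2-fold lower. With 1 CPM added in place of 10, 353 genes were higher and 164 lower, and the list medians were 1.57 (response), 2.31 (hem) and 2.28 (rostral midline). A minimum of 50 CPM left 122 genes higher and a hem median of 1.90, and no minimum gave a hem median of 0.89. In alternatives chosen after seeing the data, ignoring Folr1 and Clic6 gave 2.93% at E16 and a hem median of 2.04, and cells with 10 or more ligand UMIs gave 360 genes higher, 207 lower, a response median of 1.63 and a rostral midline median of 2.08. The cause of these shifts was not tested. Leaving out the library with the most members gave no value, because only E16 held 50 or more. No paired analysis was possible because each label has 1 library. Depth limits genes near 1 UMI per cell, and the 23 cells at E18 most of all.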

Other observations

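Ligand-bearing cells set aside by the rule for a Folr1 or Clic6 UMI had many of the same transcripts. The 26 such cells at E16 had a median of 8 ligand UMIs and a highest value of 132, and 14 of them rested on a single Folr1 or Clic6 UMI. In 18 cells with fewer than 10 Ttr UMIs the median was 19 ligand UMIs, and in the 8 with 10 or more it was 3. Summed over the 26 cells, Maf was at 573 CPM (514 to 637), Otx2 at 412 (363 to 467), Six3 at 212 (177 to 252), Cthrc1 at 220 (184 to 261) and Fgf18 at 142 (113 to 175). Wnt8b, at 419 CPM (369 to 474), and Rspo3, at 334 (289 to 384), were above their levels in the Fgf8/Fgf17 cells, and Ttr had UMIs in 13 of the 26.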
